A study of Sus scrofa with 12 samples.

Results

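The genes described here encode the enzymes of the mitochondrial respiratory chain, ATP synthase and the tricarboxylic acid (TCA) cycle. They were chosen by gene symbol alone, from the symbols in the platform annotation of a porcine expression array. The rule itself was set with earlier results of these data known. The symbols taken were NDUF (complex I and its assembly factors), SDHA to SDHD and SDHAF2 (complex II), UQCR (complex III), COX4 to COX8 (complex IV), ATP5 (ATP synthase, complex V), and CS, MDH1, MDH2, IDH1 to IDH3, ACO1, OGDH, SUCL and FH for the cycle and its cytosolic isozymes. A probe set also had to lie over log2 4 on at least 3 of the 12 arrays. Of 101 probe sets with 1 matching symbol, for 79 genes, 95 probe sets of 78 genes were kept, out of 17638 probe sets tested, of which those with 1 symbol stood for 6014 genes. The 6 left out were dim on nearly every array, and OGDHL was the only gene lost with them. Of the 95, 93 lay over log2 4 on all 12 arrays, so the filter on low values bore on few of them. No probe set with a single symbol was kept for CYC1, UQCRC1, UQCRC2, UQCRFS1, COX4I1, COX5A or COX8A, so complexes III and IV were covered only in part. Subunits encoded by mitochondrial DNA lie outside the rule.

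The TCA cycle oxidises acetyl groups in the mitochondrial matrix and passes the electrons to NADH and to succinate dehydrogenase. Complexes I and II feed these electrons through ubiquinone to complex III, cytochrome c carries them to complex IV, and there oxygen is reduced. Complexes I, III and IV pump protons across the inner membrane, and ATP synthase lets them flow back to make ATP. Fibroblast-like cells of the heart valve leaflet live in thin, sparsely vascularised tissue.

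The cells were valvular interstitial cells from adult pig aortic valves, released by collagenase II digestion, and each of 4 groups held 3 biological replicates. Cells of the P2 groups had gone through 2 passages on plastic and were then held in medium 199 with 1% fetal bovine serum. They were left untreated or were given porcine TGF-β1, a cytokine that drives fibroblasts towards a matrix-producing state, at 5 ng/ml for 8 h or for 24 h. All P2 groups were collected together on day 3 of culture. P0 cells were freshly isolated, never cultured and never treated, so P2 and P0 differ in passage, plastic, medium and time outside the animal together. The labels give no sorting of the digest and do not say whether animals were pooled.

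The deposited values are log2 levels per probe set, and array medians lay within 0.073 of each other. Reporter control probe sets had a 95th percentile of log2 4.58, and a fold against a group mean under it is written as at least that value. The mesenchymal marker VIM, vimentin, lay between 15.44 and 15.65 on all arrays. Between untreated P2 and P0 cells, 59.4% of all probe sets tested were called, 33.6% higher and 25.8% lower (limma, adjusted p under 0.05). Macrophage markers were lower in untreated P2 cells in 8 of the 8 measured, of 12 listed. Their mean level was 6.29 to 6.77 in untreated P2 arrays and 9.02 to 9.55 in P0 arrays. Of the fibroblast markers, 5 of 8 measured, of 10 listed, were lower in untreated P2 cells, and their mean level was 11.83 to 12.06 in those arrays and 12.51 to 12.57 in P0 arrays. Endothelial markers had a mean level of 7.69 and 8.02 on the untreated P2 arrays numbered 1 and 2, and of 5.85 on the array numbered 3, against 7.09 to 7.37 in P0 arrays. Of 10 listed, 9 were measured, and 0 were called between untreated P2 and P0 cells. With TGF-β1 the array numbered 3 was again the lowest. It had 5.88 at 8 h, against 7.56 and 7.72 on the arrays numbered 1 and 2, and 5.71 at 24 h, against 7.23 and 7.32. No lymphocyte marker of 6 listed passed the filter. In bulk RNA, fewer cells of a type and less of an RNA per cell cannot be told apart, and the part of the cell mixture in the results below was not tested.

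Most respiratory chain and TCA cycle genes were higher in untreated P2 cells than in P0 cells. Of the 95 probe sets, 73 rose, 4 fell and 18 did not pass the test (limma, adjusted p under 0.05 over all probe sets tested). Of all 17638 probe sets tested, 59.4% were called, 33.6% of them all higher and 25.8% of them all lower. Among the 95, that is 81.1% called and 76.8% called higher. The median log2 fold change of the 95 was 0.78, a 1.71-fold difference, and that of all probe sets tested was 0.07. By gene, each taken by its probe set with the highest mean, 63 of 78 rose and 2 fell. The rises were mostly moderate. They were at least 2-fold for 30 probe sets, between 1.5-fold and 2-fold for 27, and under 1.5-fold for 16. Of the 77 called, 70 were called whichever of the 6 arrays was left out.

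By probe set, the median log2 fold change was 1.00 for the 17 probe sets of the TCA cycle and its isozymes, 0.80 for the 17 of ATP synthase, 0.78 for the 38 of complex I subunits, 0.66 for the 4 of complex I assembly factors, 0.55 for the 8 of complex II, 0.29 for the 2 of complex III and 0.13 for the 9 of complex IV. With 1 probe set per gene the medians were 0.87 for the TCA cycle, 0.85 for ATP synthase, 0.79 for complex I, 0.31 for its assembly factors, 0.78 for complex II, 0.29 for complex III and 0.18 for complex IV. The order of the classes thus depends on the unit counted: complex II came level with complex I, and the assembly factors, where NDUFAF1 has 2 of the 4 probe sets, came lower. These medians are descriptions, and the differences between classes were not tested.

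**Figure D1:**
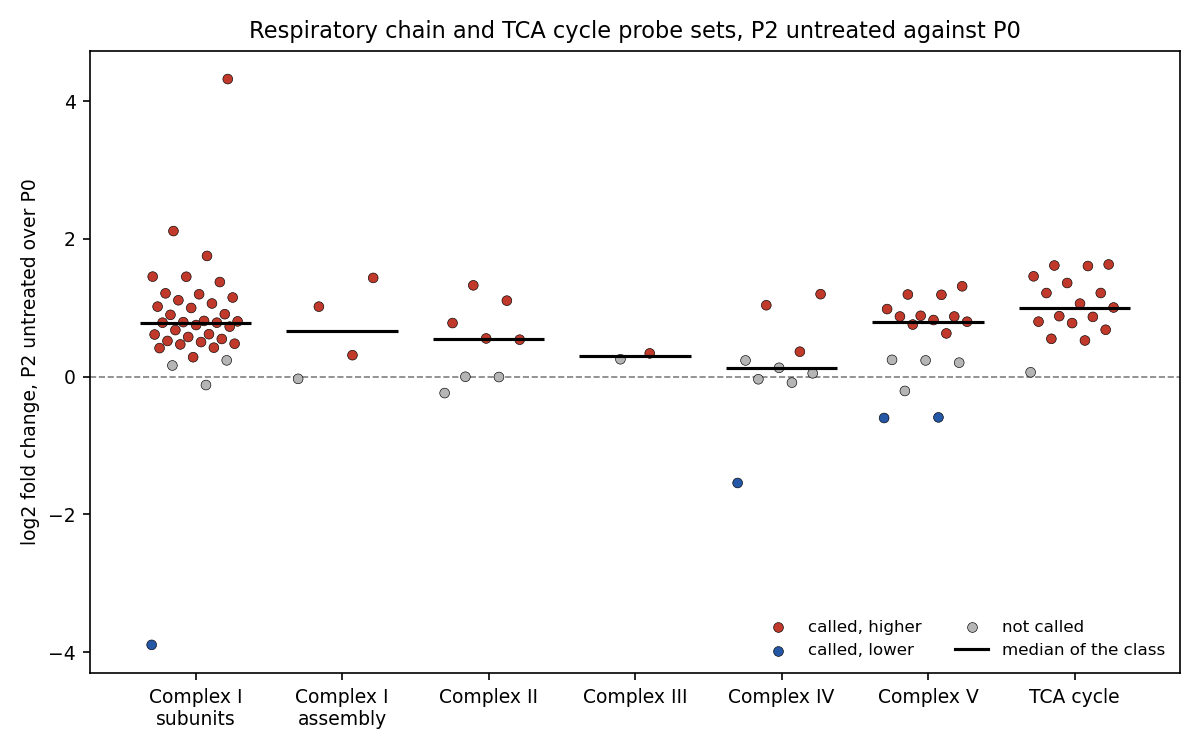
Log2 fold change of untreated P2 over P0 cells (vertical axis) for each of the 95 probe sets, by enzyme class (horizontal axis); each point is 1 probe set, coloured by whether limma called it, and the bar is the class median. Nearly all points of the TCA cycle and complex I lie above 0, with class medians of 1.00 and 0.78, while those of complex IV lie around a median of 0.13.

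Of the 17 TCA cycle probe sets, 16 rose and 0 fell, where 33.6% of all probe sets tested were called higher and 25.8% lower. CS, citrate synthase, which opens the cycle by joining acetyl-CoA to oxaloacetate, had log2 levels of 12.10, 12.14 and 12.07 in untreated P2 cells, against 10.42, 10.58 and 10.50 in P0 cells. The 2 groups lay far apart beside a spread of 0.037 and 0.076 (SD, n = 3 each). The log2 fold change was 1.61 ± 0.0953 (SE), or 3.04-fold, with an adjusted p of 5.32e-08, and the other CS probe set rose by 1.36. MDH2, the mitochondrial malate dehydrogenase that closes the cycle, had 11.17, 11.06 and 10.95 in untreated P2 cells, against 9.19, 9.34 and 9.82 in P0 cells (log2 fold change 1.61 ± 0.146). IDH2, the mitochondrial NADP-dependent isocitrate dehydrogenase, had 11.12, 11.14 and 10.57 in untreated P2 cells, against 9.24, 9.13 and 9.57 in P0 cells (1.63 ± 0.188). In both genes every P2 array lay above every P0 array, although P0 replicate 3 was the nearest of them.

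The subunits of the NAD-dependent isocitrate dehydrogenase rose less, with log2 fold changes of 0.55 ± 0.134 for IDH3A, 0.68 ± 0.109 for IDH3B and 0.88 ± 0.105 for IDH3G; a further IDH3A probe set rose by 1.21. The succinyl-CoA ligase subunits SUCLG1, SUCLG2 and SUCLA2 rose by 0.78 ± 0.106, 0.80 ± 0.226 and 0.87 ± 0.151, and FH, fumarase, by 1.06 ± 0.112. OGDH, which encodes the first enzyme of the 2-oxoglutarate dehydrogenase complex, was the exception. Its levels were 8.31, 8.36 and 8.41 in untreated P2 cells, against 8.36, 8.14 and 8.39 in P0 cells, so the groups overlapped, with a log2 fold change of 0.06 and a 95% interval of -0.24 to 0.37. The other subunits of that complex, DLST and DLD, which are not among the 95, rose by 1.00 ± 0.116 and 1.06 ± 0.131. The cytosolic isozymes rose too. IDH1, a source of cytosolic NADPH, rose by 1.21 ± 0.151, MDH1 of the malate-aspartate shuttle by 1.00 ± 0.122, and ACO1, cytosolic aconitase and also iron regulatory protein, by 0.52 ± 0.124 on the brighter of its probe sets and by 1.46 ± 0.125 on the other.

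Complex I is built of a peripheral arm, which oxidises NADH in its N module and reduces ubiquinone in its Q module, and a membrane arm that pumps protons. All parts took part in the rise. By gene, 8 of 8 N module subunits, 4 of 4 of the Q module and its junction with the membrane, NDUFAB1, the mitochondrial acyl carrier protein, and 16 of 19 membrane arm subunits rose. Of the catalytic core, 5 genes were measured and 5 rose, and of the accessory subunits 24 of 27 did. The background was 33.6% of all probe sets tested called higher. The calls held in all 6 fits with an array left out for 7 N module genes. They did so for 3 of the Q module and junction and for 14 of the membrane arm. NDUFA12 of the N module and NDUFA5 of the Q module and junction lost theirs in some of these fits. NDUFV2, an iron-sulfur subunit of the N module, had log2 levels of 11.69, 11.67 and 11.58 in untreated P2 cells, against 9.85, 9.77 and 10.06 in P0 cells. That is a 3.37-fold difference (log2 fold change 1.75 ± 0.103, adjusted p = 5e-08), and a dimmer probe set rose by 0.73 on the log2 scale. On its dimmest probe set the P0 mean lay under the level of the controls, and the P2 level was at least 1.13-fold higher. NDUFV1, which binds the flavin that takes up the electrons, rose by 0.55 ± 0.0924, NDUFS1, the largest subunit of the peripheral arm, by 1.02 ± 0.12, and the accessory subunit NDUFA7 by 1.45 ± 0.139. NDUFA9, at the junction of the arms, rose by 1.45 ± 0.122.

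By each gene's brightest probe set, the largest rise within complex I was that of NDUFB1, a small accessory subunit of the membrane arm. Its levels were 13.11, 12.96 and 12.75 in untreated P2 cells, against 11.03, 10.49 and 10.96 in P0 cells, a 4.33-fold difference (log2 fold change 2.11 ± 0.158, adjusted p = 3.32e-07). NDUFB8, another membrane arm subunit, rose by 0.52 ± 0.12. The 3 complex I genes that did not pass, each by its brightest probe set, were also of the membrane arm. NDUFA1 had a log2 fold change of 0.16, NDUFA3 of -0.12 and NDUFB11 of 0.24. NDUFB11 had 9.95, 9.97 and 10.06 in untreated P2 cells, against 9.83, 9.72 and 9.71 in P0 cells, which do not overlap, with an adjusted p of 0.115.

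Of the assembly factors with NDUFAF names, which help to build complex I without staying in it, NDUFAF1 rose by 1.43 ± 0.131, with levels of 6.81, 6.89 and 6.88 in untreated P2 cells, against 5.41, 5.20 and 5.66 in P0 cells. NDUFAF2 rose by 0.31 ± 0.113, a call lost with 3 of the 6 arrays left out in turn, and NDUFAF3 did not pass, at -0.03. Assembly factors of complex I that carry other names were all higher. TMEM186 rose by 1.37 ± 0.219, ACAD9 by 1.30 ± 0.15 and TMEM126B by 1.26 ± 0.104, and the 5 measured of 9 listed were called higher.

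Complex II, succinate dehydrogenase, belongs to both the cycle and the chain. SDHA, its flavoprotein, had levels of 10.97, 10.87 and 10.85 in untreated P2 cells, against 9.46, 9.60 and 9.65 in P0 cells, a 2.51-fold difference (1.33 ± 0.1, adjusted p = 3.61e-07). The membrane anchor SDHC rose by 1.10 ± 0.137 and the iron-sulfur subunit SDHB by 0.78 ± 0.104. The other membrane anchor, SDHD, did not pass. It had a mean of 11.80 ± 0.173 in untreated P2 cells and 11.81 ± 0.0200 in P0 cells (SD, n = 3 each), with a log2 fold change of -0.01 and a 95% interval of -0.26 to 0.25. SDHAF2, which helps to attach the flavin to SDHA, rose by 0.54 ± 0.113. The further probe sets of SDHB and SDHAF2 did not pass, at 0.00 and -0.24, and that of SDHA rose by 0.55.

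Complex III was represented by 2 small subunits. UQCRB had 11.42, 11.66 and 11.66 in untreated P2 cells, against 11.39, 11.04 and 11.30 in P0 cells (0.34 ± 0.126, adjusted p = 0.0355), a call that held in only 2 of the 6 fits with an array left out. UQCR10 had a log2 fold change of 0.25 ± 0.129 and did not pass (adjusted p = 0.112).

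For complex IV, cytochrome c oxidase, 3 of 9 probe sets rose, 1 fell and 5 did not pass. The share that rose, 33.3%, is close to the 33.6% of all probe sets tested. COX5B, a structural subunit facing the matrix, had 13.43, 13.44 and 13.31 in untreated P2 cells, against 12.34, 11.97 and 12.28 in P0 cells (1.20 ± 0.119, adjusted p = 3.56e-06). COX7A2, the subunit isoform found in most tissues, had 12.89, 12.84 and 12.82 in untreated P2 cells, against 11.96, 11.50 and 11.99 in P0 cells (1.04 ± 0.13, adjusted p = 2.33e-05). COX6C rose by 0.36 ± 0.11. COX6A1, COX7C, COX8H and NDUFA4, first described as a complex I subunit and since assigned to complex IV, had log2 fold changes of 0.13, 0.23, -0.04 and 0.05, and none of them passed.

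COX7A1, the isoform of the same subunit as COX7A2 that is best known from heart and skeletal muscle, went the other way. Its levels were 7.60, 7.42 and 8.20 in untreated P2 cells, against 9.34, 9.05 and 9.45 in P0 cells. It fell 2.92-fold (log2 fold change -1.55 ± 0.195, adjusted p = 2.53e-05), and the call held with each of the 6 arrays left out in turn. The highest untreated P2 value was on the array numbered 3, which also had the highest mean of the muscle markers. For these, 4 of 14 listed were measured, at a mean of 5.02, 4.88 and 5.70 in untreated P2 arrays and 4.29 to 4.50 in P0 arrays. On that array ACTC1, cardiac actin, was at 8.78, against 5.82 and 5.30 on the other untreated arrays. The higher mean came from ACTC1 alone, as no other measured muscle marker was highest on that array. In untreated P2 arrays 1, 2 and 3, MYH7 had 4.66, 4.56 and 4.62, and NPPA had 4.01, 4.06 and 4.02. MYL3 had 5.58, 5.58 and 5.41. Whether the COX7A1 level goes with muscle cells was not tested. In P0 cells 3 of these 4 markers had a mean under the level of the reporter controls.

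**Figure D2:**
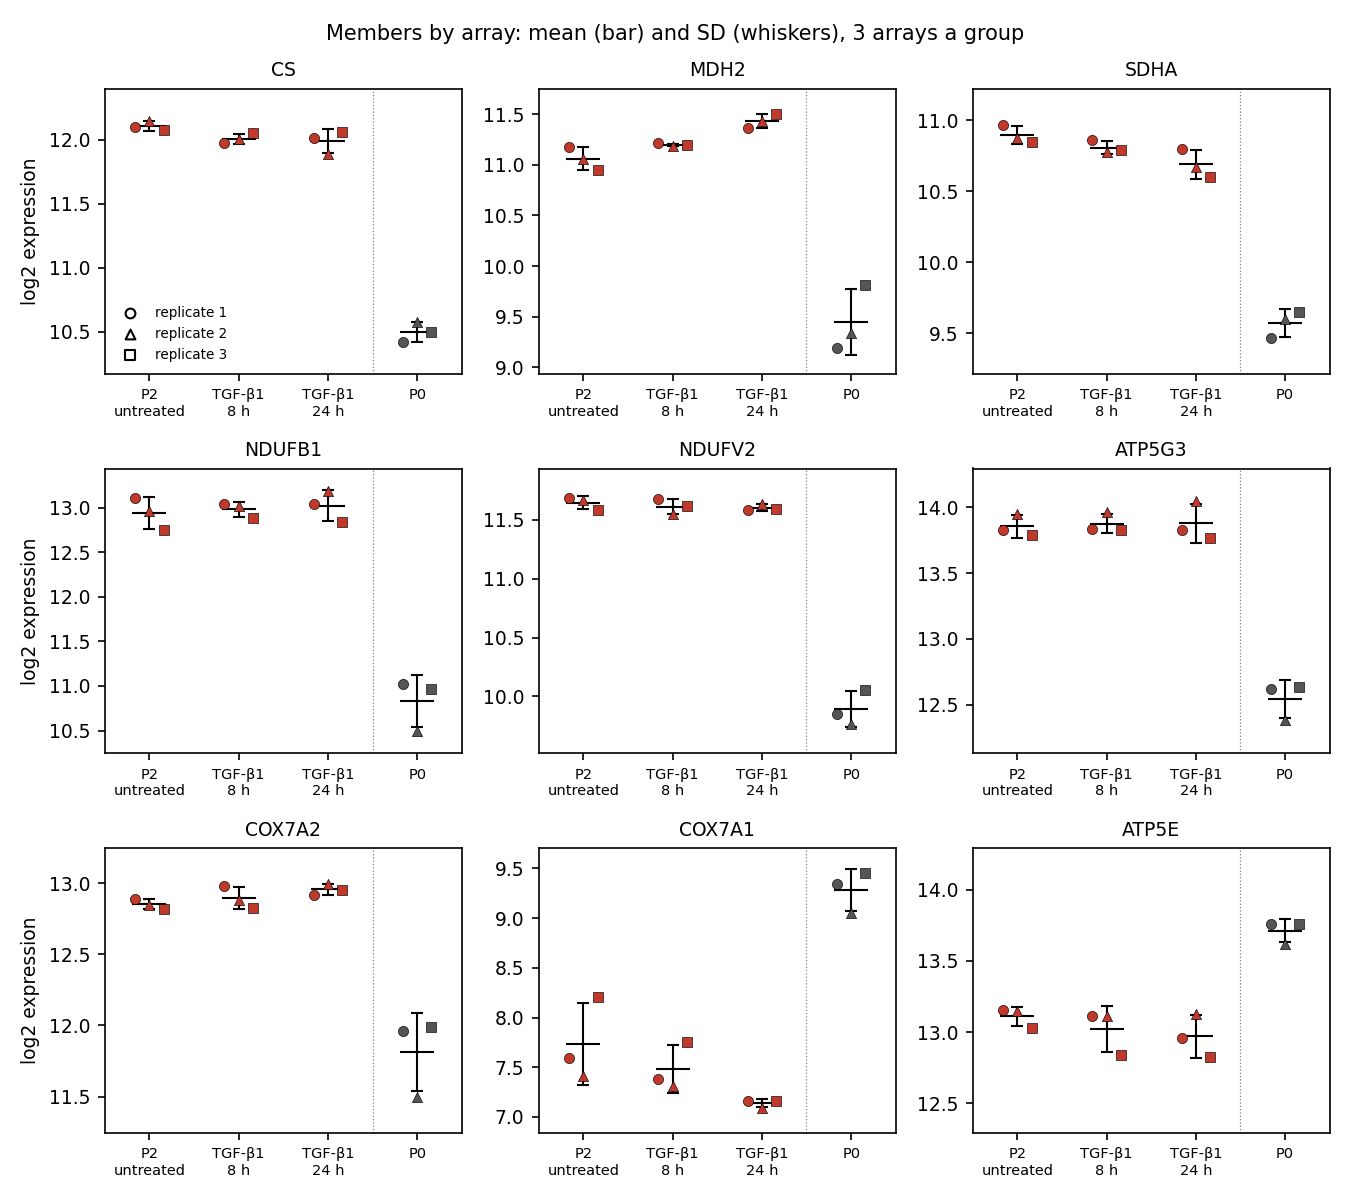
Log2 level (vertical axis) on each of the 12 arrays for 9 genes, each by its brightest probe set; symbols mark the replicate number, the bar is the group mean and the whiskers the SD of 3 arrays, and each panel has its own range. CS, MDH2, SDHA, NDUFB1, NDUFV2, ATP5G3 and COX7A2 lie above the P0 arrays in all P2 groups, and COX7A1 and ATP5E below them.

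ATP synthase rose in most of its parts: 11 of 17 probe sets rose, 2 fell and 4 did not pass. Of all probe sets tested, 33.6% were called higher and 25.8% lower. The c ring, which turns as protons pass, is encoded by ATP5G1, ATP5G2 and ATP5G3, genes that give the same mature protein. They rose by 0.76 ± 0.152, 0.80 ± 0.122 and 1.31 ± 0.115. ATP5G3 had 13.83, 13.95 and 13.79 in untreated P2 cells, against 12.62, 12.38 and 12.64 in P0 cells, a 2.48-fold difference. The catalytic head subunits ATP5A1 and ATP5B rose by 0.88 ± 0.109 and 0.87 ± 0.118, and ATP5O, which joins the head to the peripheral stalk, by 0.63 ± 0.113. ATP5L, subunit g of the membrane part, rose by 1.19 ± 0.109 on its brightest probe set. ATP5S, coupling factor B, rose by 1.19 ± 0.156 on its brighter probe set, and the other was not called, at 0.20.

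ATP5E, the epsilon subunit of the central stalk, fell. Its levels were 13.15, 13.15 and 13.03 in untreated P2 cells, against 13.76, 13.62 and 13.76 in P0 cells (log2 fold change -0.60 ± 0.118, adjusted p = 0.00081), and the groups did not overlap. ATP5D, the delta subunit of the same stalk, did not pass: it had 10.61, 10.64 and 10.68 in untreated P2 cells, against 10.45, 10.42 and 10.35 in P0 cells (adjusted p = 0.0689). ATP5I, a membrane subunit, had a log2 fold change of 0.24 and overlapping groups.

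Of the 14 genes with more than 1 probe set, 8 had the same call on all of them. NDUFS3, a core subunit of the Q module, rose by 0.90 and 0.91 on its brighter probe sets. On the third it had a mean of 4.41 ± 0.352 in untreated P2 cells and 8.30 ± 0.291 in P0 cells (SD, n = 3 each), at least 13.2-fold lower and opposite in direction. ATP5L also had probe sets called in opposite directions, since the dimmest of its 3 fell (-0.59 ± 0.151), close to the level of the controls at 4.99, 4.59 and 4.46 in untreated P2 cells and 5.13, 5.22 and 5.48 in P0 cells. The remaining ATP5L probe set was not called, but its untreated P2 arrays also lay below its P0 arrays. NDUFA1 differed most in size. Its brightest probe set did not pass, at 0.16, while the other, of the kind marked _s_at, read 11.79, 11.81 and 11.30 in untreated P2 cells, against 7.55, 6.93 and 7.45 in P0 cells (4.32 ± 0.197). Probe sets so marked can bind more than 1 transcript. The changes of NDUFS3, ATP5L and NDUFA1 are therefore uncertain.

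The groups were separate for most of the 95. All 3 untreated P2 arrays lay above all 3 P0 arrays for 76 probe sets and below them for 5, and of all probe sets tested 36.8% and 28.3% did so. With the TGF-β1 arrays included, all 9 P2 arrays lay above all 3 P0 arrays for 70 probe sets, among them 69 of the 73 that rose, and below them for 3; of all probe sets tested 30.5% and 22.4% did so. The P0 arrays differed among themselves in a common direction. P0 replicate 2 was the lowest P0 array for 65 of the 95, against 33.1% of all probe sets tested. Without it the median log2 fold change of the 95 was 0.69, and 67 rose and 4 fell. The size of the change had little to do with how bright a gene was. Across the 78 genes, the mean level and the log2 fold change had a Pearson correlation of 0.07 and a Spearman correlation of -0.02, given as a description because genes share arrays and are not replicates.

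**Figure D3:**
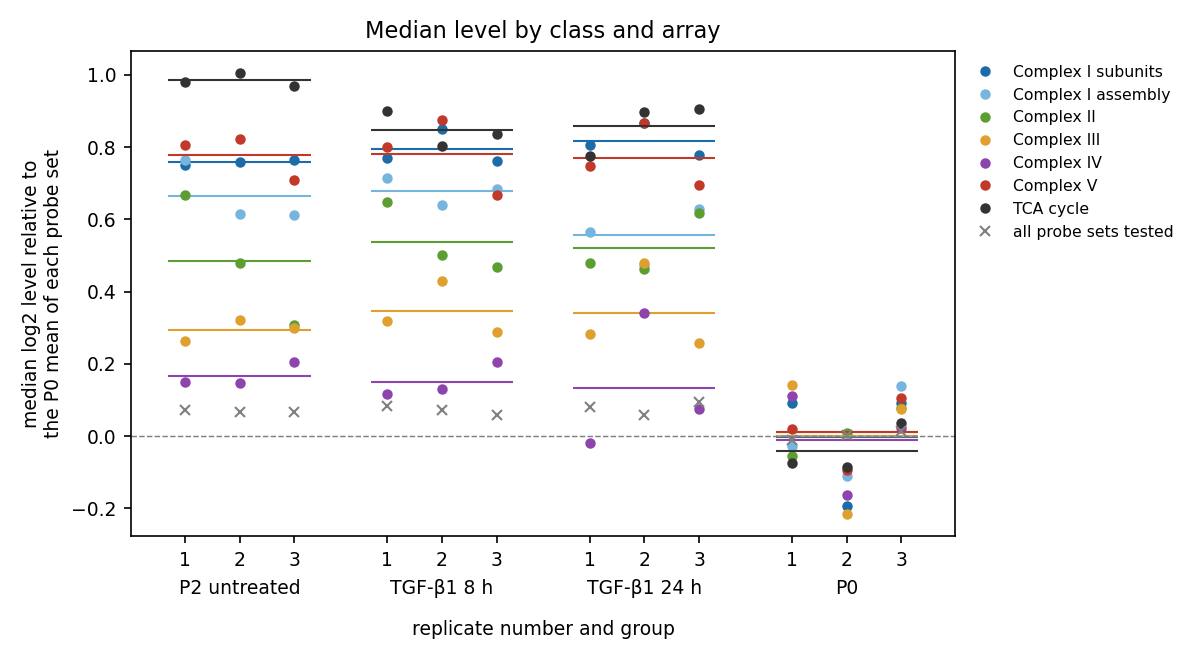
Median level of each enzyme class on each array (vertical axis, log2, after the P0 mean of each probe set is subtracted), by replicate number and group; points are class medians, lines the mean of 3 arrays, and crosses the median of all probe sets tested. The TCA cycle lies at 0.97 to 1.01 on the untreated P2 arrays and between -0.08 and 0.04 on the P0 arrays, and P0 replicate 2 has the lowest median for 6 of the 7 classes.

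Genes that serve the chain from outside it were taken as 6 further lists. For each list the background between untreated P2 and P0 cells was 33.6% of all probe sets tested called higher and 25.8% called lower. Of the assembly factors of complexes II to V, 11 of 37 listed were measured, and 8 of these rose while 0 fell (median log2 fold change 1.48). TMEM70, which helps to assemble ATP synthase, had levels of 10.66, 10.88 and 10.95 in untreated P2 cells, against 8.12, 8.48 and 8.05 in P0 cells (2.61 ± 0.15, or 6.10-fold). FASTKD2, a mitochondrial RNA-binding protein, rose by 1.93 ± 0.162 and COX10, which makes the haem of complex IV, by 1.88 ± 0.109. Of the electron carriers and other enzymes that feed electrons in, 11 of 23 were measured and 10 rose. GPD2, the mitochondrial glycerol-3-phosphate dehydrogenase, was at least 4.13-fold higher, and PDSS1 and COQ5, of ubiquinone synthesis, rose by 2.02 ± 0.173 and 1.88 ± 0.133. Cytochrome c itself, CYCS, fell, with 9.89, 10.16 and 9.65 in untreated P2 cells, against 10.65, 10.50 and 10.66 in P0 cells (-0.70 ± 0.167, adjusted p = 0.00313).

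Of the genes of pyruvate entry, 12 of 19 were measured, 9 rose and 3 fell. PDHB, a subunit of pyruvate dehydrogenase, rose by 1.33 ± 0.108. PCK2, mitochondrial phosphoenolpyruvate carboxykinase, was at least 12.7-fold higher. The kinases PDK4 and PDK3, which switch pyruvate dehydrogenase off, fell by 3.21 and 1.55 on the log2 scale. Of the carriers of adenine nucleotides, phosphate and TCA metabolites, 13 of 17 were measured and 11 rose. UCP2, an uncoupling protein, was called lower, but its mean lay under the level of the controls in both groups, so no fold is given. The citrate carrier SLC25A1 rose by 1.75 ± 0.0908, and the outer membrane channels VDAC1 and VDAC2 by 1.56 ± 0.0926 and 1.41 ± 0.143. The regulators of mitochondrial biogenesis did not share a direction, with 3 higher and 2 lower among 6 measured of 22 listed. Here too the background was 33.6% of all probe sets tested called higher and 25.8% called lower. TFB1M, which modifies mitochondrial ribosomal RNA, and SSBP1, which coats mitochondrial DNA, rose by 1.84 ± 0.118 and 1.80 ± 0.116. The transcription factor MYC and the coactivator PPRC1 fell by 1.78 and 1.39 on the log2 scale, and TFAM, which packages mitochondrial DNA, did not pass, at -0.21 ± 0.12.

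TGF-β1 moved few of these genes. At 8 h, 1 of the 95 probe sets was higher and 2 were lower than in untreated P2 cells, and of all probe sets tested 5.07% were called, 2.53% of them all higher and 2.53% of them all lower. At 24 h, 1 was higher and 2 were lower, and of all probe sets tested 8.49% were called, 4.27% of them all higher and 4.22% of them all lower. The 8 h and 24 h comparisons share the untreated arrays. The median size of the log2 fold change, without its sign, was 0.08 at 8 h and 0.09 at 24 h for the 95, and 0.16 and 0.18 for all probe sets tested. The 95% interval of the change lay within 1.5-fold in either direction for 87 of the 95 at 8 h and for 79 at 24 h, while 58.9% and 55.2% of all probe sets tested had such an interval. At an unadjusted p under 0.05 there were 6 of the 95 at 8 h and 12 at 24 h, and of all probe sets tested 17.4% and 22.7%. The groups did not overlap for 11 higher and 9 lower at 8 h, where 12.8% and 12.7% of all probe sets tested were so separated, and for 14 higher and 15 lower at 24 h, where 13.4% and 11.9% were. CS had a log2 fold change of -0.10 at 8 h and of -0.12 at 24 h and was not called.

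**Figure D4:**
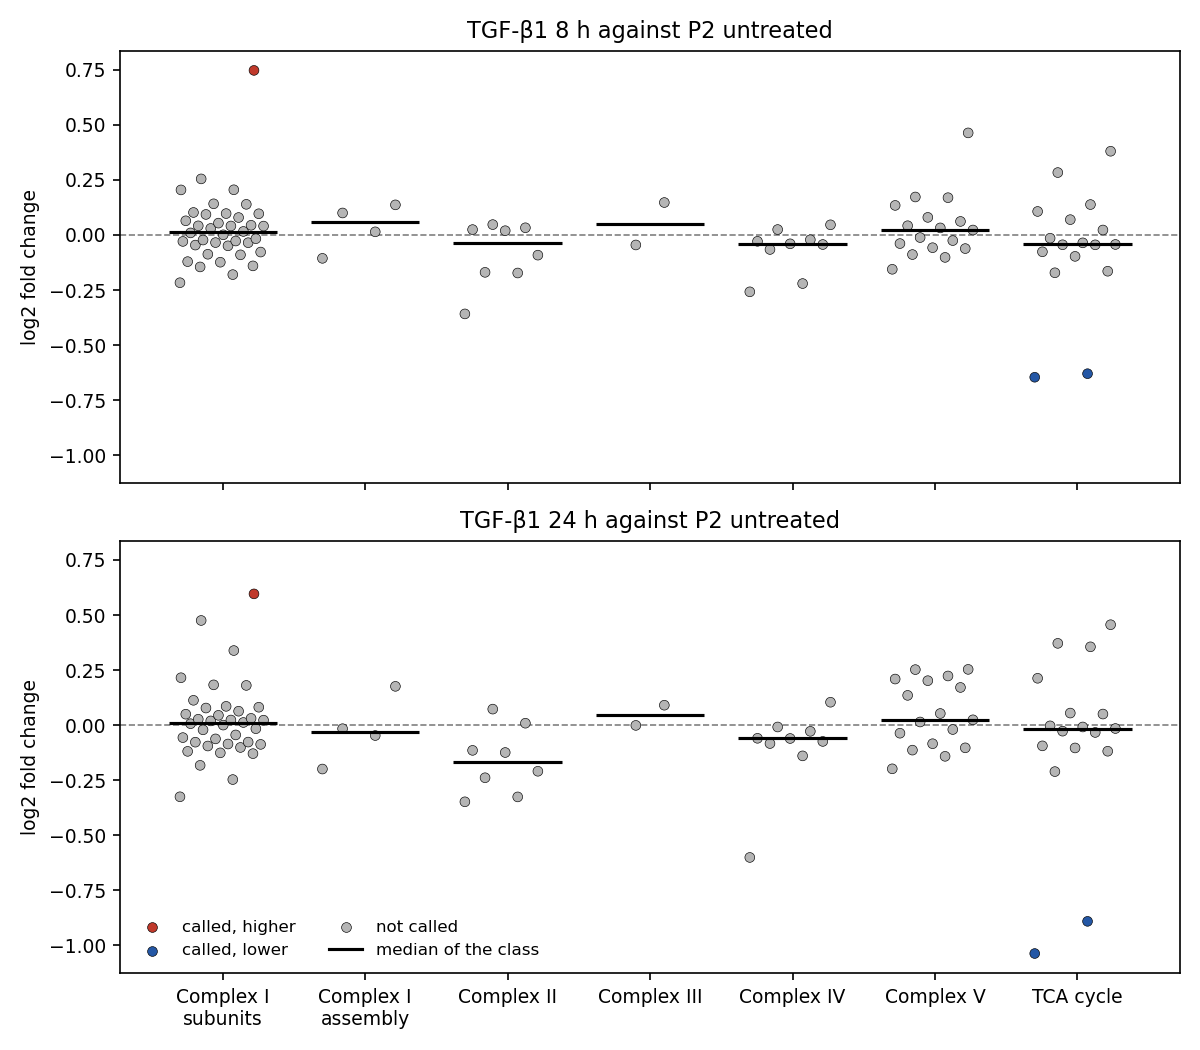
Log2 fold change of P2 cells given TGF-β1 for 8 h (upper panel) or 24 h (lower panel) over untreated P2 cells (vertical axes) for each of the 95 probe sets, by enzyme class; colours mark the calls of limma and bars the class medians. Most points lie close to 0, and the coloured ones are NDUFV3, higher, and ACO1 and IDH1, lower.

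The 2 genes that fell, IDH1 and ACO1, encode cytosolic enzymes. MDH1, also cytosolic, was not called at either time. IDH1 had log2 levels of 9.86, 9.47 and 9.59 in untreated P2 cells, 9.10, 9.08 and 8.85 at 8 h, and 8.83, 8.86 and 8.55 at 24 h. All treated arrays lay below all untreated ones. The log2 fold change was -0.63 ± 0.151 at 8 h (adjusted p = 0.0336) and -0.89 ± 0.151 at 24 h (adjusted p = 0.00415). The 8 h call held in 1 of the 6 fits with an array left out and the 24 h call in all 6.

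ACO1, on the dimmer of its probe sets, had 8.94, 8.83 and 9.10 in untreated P2 cells, 8.45, 8.13 and 8.35 at 8 h, and 7.94, 7.75 and 8.07 at 24 h. It was 1.56-fold lower at 8 h (adjusted p = 0.0137) and 2.05-fold lower at 24 h (log2 fold change -1.04 ± 0.125, adjusted p = 0.000625). At 24 h the call held with any array left out. At 8 h it was lost without the 8 h replicate 2 (adjusted p = 0.0585) and without the untreated replicate 3 (adjusted p = 0.0634). The brighter ACO1 probe set was not called at either time, with log2 fold changes of -0.08 and 0.06, so the 2 probe sets disagree.

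NDUFV3, an accessory subunit of the N module of complex I, was higher with TGF-β1. It read 6.45 on each of the 3 untreated P2 arrays (SD 0.000296), 7.02, 7.14 and 7.44 at 8 h, and 6.96, 6.74 and 7.45 at 24 h. The treated arrays spread far more widely, and whether the processing of the values narrowed the untreated spread was not tested. The log2 fold change was 0.75 ± 0.167 at 8 h (adjusted p = 0.0252) and 0.60 ± 0.167 at 24 h (adjusted p = 0.0486). Both calls were lost in 5 of the 6 fits with an array left out, with adjusted p up to 0.098 at 8 h and 0.13 at 24 h. In P0 cells the same probe set read 5.33, 5.18 and 5.27.

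**Figure D5:**
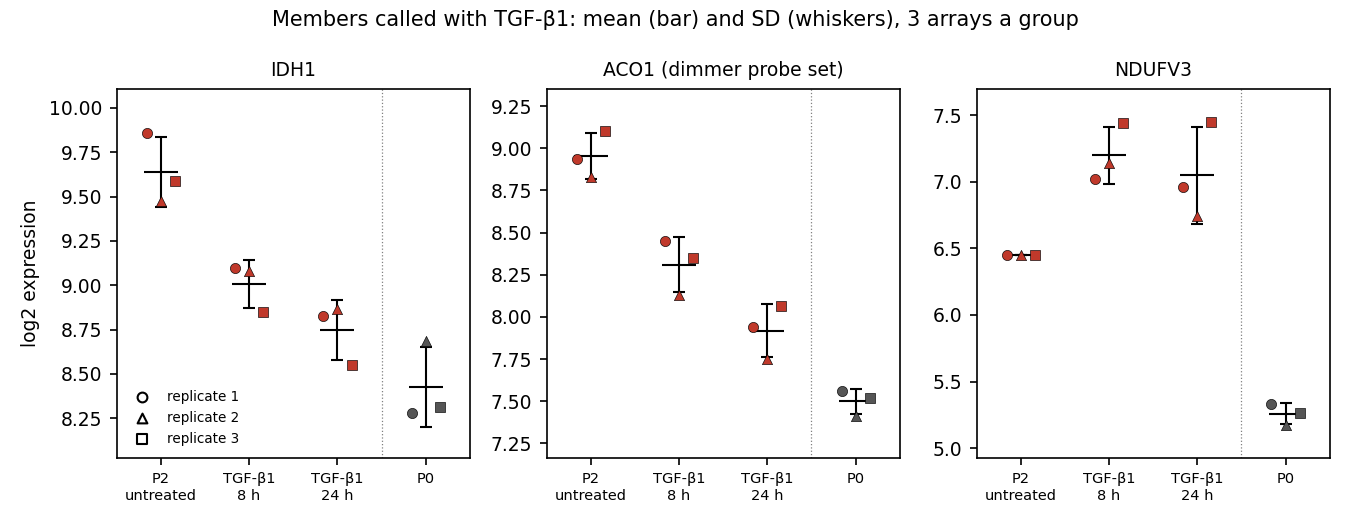
Log2 level (vertical axis) of IDH1, of ACO1 on its dimmer probe set and of NDUFV3 on each of the 12 arrays; symbols mark the replicate number, the bar is the group mean and the whiskers the SD of 3 arrays, and each panel has its own range. The treated arrays lie below the untreated P2 arrays for IDH1 and ACO1 and above them for NDUFV3.

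P2 arrays with the same replicate number deviated together, and a fit with the replicate number as a block called more of the 95. At 24 h it called 11, of which 6 were higher and 5 lower, and 20.0% of all probe sets tested, 9.77% higher and 10.2% lower. At 8 h it called 4, and 12.5% of all probe sets tested. Besides NDUFV3, the blocked 24 h calls were higher for both IDH3A probe sets, MDH2, NDUFA7 and NDUFB2. NDUFB2, a membrane arm subunit of complex I, had 11.03, 11.05 and 10.84 in untreated P2 cells and 11.48, 11.48 and 11.40 at 24 h (0.48 ± 0.143, adjusted p = 0.0632, and 0.00571 with the block). MDH2 had 11.17, 11.06 and 10.95 in untreated P2 cells and 11.36, 11.43 and 11.50 at 24 h (0.37 ± 0.146, adjusted p = 0.149, and 0.0283 with the block). Both genes had all 24 h arrays above all untreated arrays. Besides IDH1 and ACO1, the blocked calls were lower for NDUFA12, SDHC and COX7A1. COX7A1 had 7.60, 7.42 and 8.20 in untreated P2 cells and 7.16, 7.09 and 7.16 at 24 h (-0.60 ± 0.195, adjusted p = 0.0832, and 0.0218 with the block), and the untreated replicate 3 was again the highest array.

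Between 24 h and 8 h of TGF-β1, 0 of the 95 probe sets were called by limma and 0 with the replicate block, while of all probe sets tested 0.232% were called without the block and 2.44% with it. At an unadjusted p under 0.05 there were 2, against 9.27% of all probe sets tested: the dimmer ACO1 probe set (-0.39 ± 0.125, adjusted p = 0.333) and ATP5D (0.23 ± 0.103, adjusted p = 0.533).

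Of the genes around the chain, CYCS was higher at both times with TGF-β1. It had 9.89, 10.16 and 9.65 in untreated P2 cells, 10.65, 10.76 and 10.61 at 8 h, and 10.59, 11.09 and 10.50 at 24 h. The log2 fold change was 0.77 ± 0.167 at 8 h (adjusted p = 0.0221) and 0.82 ± 0.167 at 24 h (adjusted p = 0.0105), and no treated array overlapped the untreated ones. SLC25A1 had 10.26, 10.20 and 10.15 in untreated P2 cells and 9.70, 9.67 and 9.64 at 24 h (-0.53 ± 0.0908, adjusted p = 0.0043). PDK4 was lower at both times, by 1.71 and 1.59 on the log2 scale. Among the 16 measured assembly factors, 0 were called at either time, and the same was true of the 6 biogenesis regulators. The background is the 5.07% and 8.49% given above.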

How the data were processed

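Values of 12 arrays in 4 groups of 3 were used. Per the file and the submitters' processing notes, the authors deposited log2 expression values per probe set made with GCRMA, whose version was not stated; dates of scanning and any batches are likewise not given in the labels used here. GCRMA can pull dim probe sets to near-constant values, which narrows their spread. The probe sets of 64 reporter controls were left out, and those over log2 4 on at least 3 arrays were tested. The probe annotation gave 1 symbol for 10069 probe sets, several for 198 and none for 13732; 4 matching probe sets with several symbols were left out.

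A model with 1 mean per group was fitted to the 12 arrays together in limma 3.58.1 under R 4.3.3. Tests were two-sided with Benjamini-Hochberg adjustment over 17638 probe sets, and calls were made at adjusted p under 0.05. Errors are SE of the fit unless marked SD. The number of arrays limits the precision (median SE 0.125 for the 95 probe sets). The fit was tested on simulated data with noise drawn independently for each array. That simulation holds no pairing of arrays, so it cannot show how the fit behaves with the pairing described next. The deviations of P2 arrays from their group means had correlations of 0.348 to 0.679 in the 9 pairs with a shared number, so the numbers pair P2 arrays; with P0 arrays the range was -0.0916 to 0.0158, so they do not pair these.

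Alternatives changed the filter, normalization, centring, variance model, arrays fitted, probe set per gene and fold threshold, or left out arrays. The genes named were a panel of catalytic and isoform subunits and TCA enzymes, up to 3 largest called rises and falls per class, all calls where there were 5 or fewer, genes called in opposite directions, and up to 3 largest changes per further list. Others were named because they did not pass or were called with the block. The genes, lists, markers and rule were chosen with earlier results of these data known.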

Additional observations from a re-analysis of the deposited data

How the results depend on the processing

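The count of 77 called probe sets between untreated P2 and P0 cells ranged from 61 with a 1.5-fold threshold to 78 with limma-trend, and from 71 to 78 with each array left out. With TGF-β1 at 8 h, 0 of the 95 were called when all P2 arrays numbered 3 were left out, a choice made after seeing the data, and 0 to 2 with each array left out (0 without the 8 h replicate 2 or the untreated replicate 3), against 3. At 24 h, 5 were called with a filter at log2 6, 5 with array weights and 11 with the replicate block, and 2 to 3 with each array left out, against 3. Between 24 h and 8 h it was 0 under every setting run, 0 to 0 with each array left out. The replicate block moved no other of these counts by over 1.5 times. No called probe set of the 95 changed direction under any setting run. Over all probe sets, the counts at 8 h, 24 h and between them were 894, 1498 and 41. They were 2200, 3519 and 430 with the block, 1463, 2274 and 247 with array weights, and 519, 631 and 0 with only the arrays of both groups; with all P2 arrays numbered 3 left out they were 265, 762 and 12. With each array left out they ranged from 364 to 702, from 800 to 1347 and from 4 to 44, and between 24 h and 8 h they were 25 without the filter and 63 with limma-trend. Fewer arrays were fitted where arrays were left out or only both groups were used; otherwise the cause was not tested. With 3 arrays a group, the 95% interval of a change reached 2.18 SE to either side, and the median SE of the 95 was 0.125. Changes within that reach could not be told from none, and the adjustment over all probe sets asks for larger ones. Where a group mean lay under log2 4.58 a fold is at best a lower bound, and changes of probe sets close to that level are uncertain.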
